A study of Homo sapiens with 6 samples.

Results

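Axon guidance ligands and receptors were examined as a group of 71 genes among the 28395 genes listed in the count table. Members were the protein-coding genes of the Eph receptor, ephrin, semaphorin (classes 3 to 7), plexin, neuropilin, SLIT, ROBO, netrin, netrin-G and UNC5 families together with DCC, matched by gene symbol. All 71 had a row in the table, 37 of them ligands and 34 receptors.

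Axon guidance molecules steer growing axons and migrating cells by attraction or repulsion, and most of them reach the cytoskeleton through small GTPases. Ephrins are held in the membrane and bind Eph receptor tyrosine kinases on a neighbouring cell. Semaphorins bind plexins, with neuropilins as co-receptors for most secreted members, while SLITs bind ROBO receptors and netrins bind DCC and UNC5 proteins. The same families act in vessels and in tumours, and in glioma they are best known for effects on migration and invasion.

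U251 (U251MG in the labels) is an established human glioblastoma astrocytoma line. Bulk RNA-sequencing covered 3 libraries of the genotype WT and 3 of the genotype NUAK2-CR, in which the kinase gene NUAK2 was targeted by CRISPR-Cas9, and no further treatment, time or allele separated the groups. NUAK2-CR cells were transduced with lentiviral vectors carrying Cas9, a NUAK2 guide and GFP or mCherry, sorted for both colours into 96-well plates and expanded as clones, so the NUAK2 edit cannot be told apart from transduction and cloning. The labels name no clone, whether WT cells were transduced or cloned is not given in the sources used here, and neither is whether the 3 libraries of a group came from separate cultures, so the p-values measure only the spread between these libraries.

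The summed counts of the 6 libraries ranged from 29648445 to 55574081, with WT replicate 1 the deepest. NUAK2 itself had 1926, 1457 and 1580.1 normalized counts in the WT libraries and 799, 961 and 849 in the NUAK2-CR libraries, all under the WT values, and its log2 fold change was -0.93 (SE 0.11, adjusted p = 1.80e-05). Here and throughout, the test was edgeR's quasi-likelihood test. The median log2 fold change over the 50 tested genes nearest to it on chromosome 1 was -0.44. Of 14 glial and glioma markers GFAP, VIM, NES and CD44 were abundant and OLIG2 had no count in any library. Their summed normalized count was 397674 to 450005 in WT and 203969 to 218204 in NUAK2-CR, with 9 of 12 tested markers lower and 1 higher. For comparison with all marker counts here, 26.3% of all tested genes were higher and 28.2% lower at an adjusted p under 0.05. The sum of 10 neuron markers was 1152 to 1173 in WT and 2240 to 2305 in NUAK2-CR, with GAD2 and ELAVL4 at 0 in every library and 3 of 7 tested markers higher. The sum of 8 endothelial and mural markers was 1319 to 1421 in WT and 2057 to 2123 in NUAK2-CR (3 of 7 tested markers higher, 2 lower), and that of 8 fibroblast and mesenchymal markers was 60430 to 64482 in WT and 77738 to 82653 in NUAK2-CR (5 of 8 tested higher, 2 lower). Sums of 6 oligodendrocyte and 9 immune markers were lower in NUAK2-CR, at 4043 to 4180 against 5679 to 6417 and at 243 to 293 against 860.2 to 978, with 2 of 3 and 2 of 2 tested markers lower and MOG, MAG, AIF1 and CD3E at 0 throughout. For 7 epithelial markers the sum was 5779 to 6540 in WT and 6758 to 7335 in NUAK2-CR, although 2 of 4 tested markers were lower and KRT18 alone was higher. Several member genes are also used by neurons or vessels, and the part of these marker shifts in the results was not tested. In bulk RNA, fewer cells expressing a gene and less of its RNA per cell cannot be told apart.

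Most of the tested members changed, in both directions. Semaphorins such as SEMA3E and SEMA5A, the receptors PLXNA4 and UNC5B and the ephrin EFNB3 rose, and SEMA6D, EPHB1, SEMA5B, SLIT3 and NTNG1 fell. Of the 71 members 59 passed edgeR's expression filter and were tested, and 44 of them (74.6%) had an adjusted p-value under 0.05, where 54.5% of all 14873 tested genes did. In NUAK2-CR 27 members were higher (45.8%, with 26.3% of all tested genes higher) and 17 were lower (28.8%, with 28.2% of all tested genes lower), and 15 were not called, so the share of lower members was close to that of all genes. Past a 2-fold change were 22 members (37.3%), 15 higher and 7 lower, compared with 13.9% of all tested genes (6.91% higher and 6.96% lower). The thresholds for differentially expressed genes (DEGs), that is adjusted p under 0.05 with a log2 fold change past 2 in either direction, were passed by 7 members (11.9%), 3 higher and 4 lower, compared with 4.72% of all tested genes (1.89% higher and 2.83% lower). The groups did not overlap for 45 tested members (76.3%, with 61.4% of all tested genes), which were the called members other than SEMA7A together with NTN3 and ROBO1. The median absolute log2 fold change was 0.68 over the tested members and 0.37 over all tested genes, and the signed medians were 0.20 and -0.01. Of the 59 tested members 54 had at least 10 counts in every library. The filter asks for enough counts in 3 libraries, so SEMA6D, SEMA5B and EPHB1 could pass on their WT libraries and ROBO4 on its NUAK2-CR libraries.

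**Figure D1:**
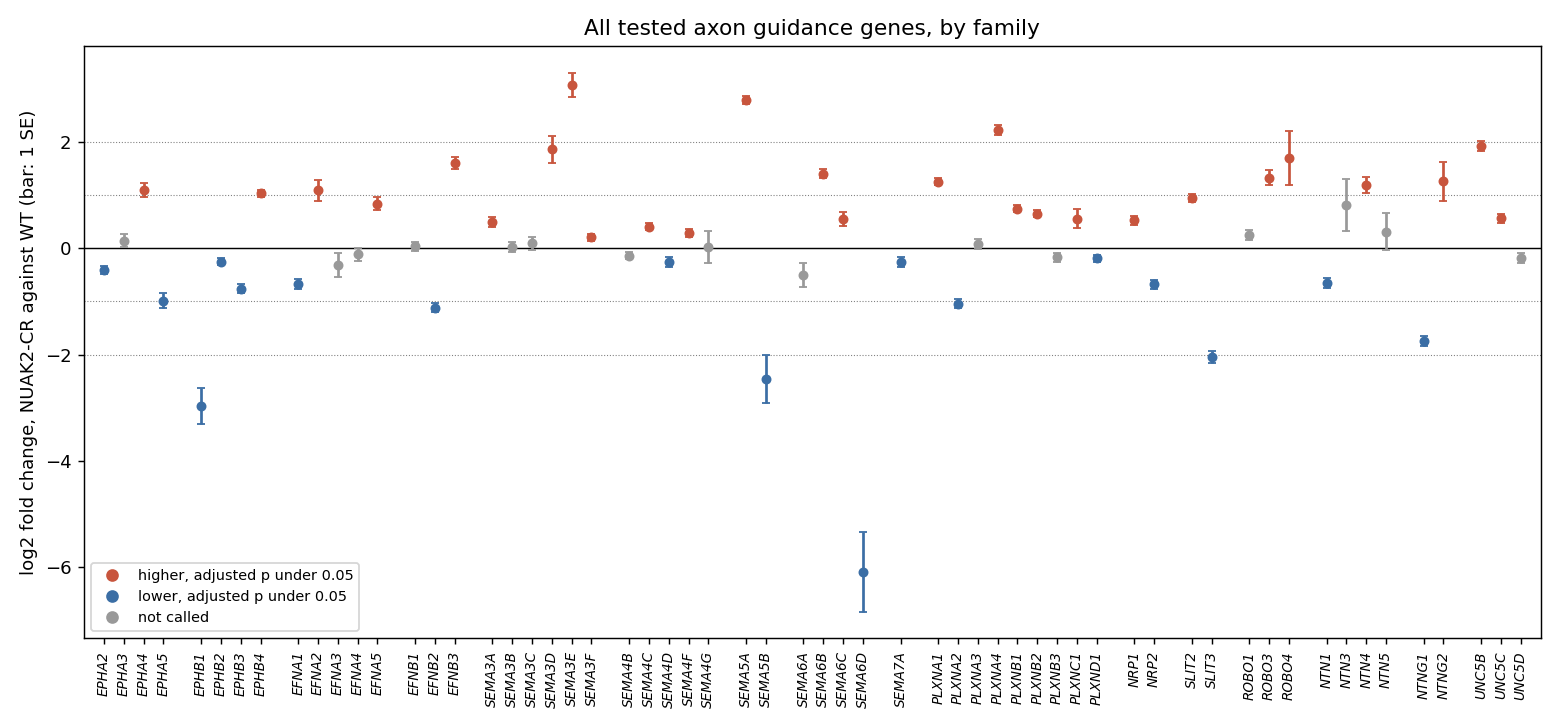
Log2 fold change (NUAK2-CR against WT) of the 59 tested axon guidance genes with 1 standard error, grouped by family along the horizontal axis; red genes were higher, blue genes lower and grey genes not called, and dotted lines mark 2-fold and 4-fold changes. Most families hold red and blue points, from SEMA3E at 3.07 to SEMA6D at -6.09.

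The 7 DEGs were SEMA3E, SEMA5A and PLXNA4, all higher, and SEMA6D, EPHB1, SEMA5B and SLIT3, all lower. All 7 had a promoter window in the RefSeq table (GRCh38.p14), read here as the 250 bases before the annotated start. The windows of SEMA3E, SEMA5B, SEMA6D, EPHB1 and SLIT3 hold no annotated exon, unlike those of SEMA5A and PLXNA4, and are shown as the DEG windows without exon sequence, which differ in CpG content. Each is written 5′ to 3′ on the strand of its gene, with every CpG in capitals.
SEMA3E (chr7:83649140-83649389, minus strand): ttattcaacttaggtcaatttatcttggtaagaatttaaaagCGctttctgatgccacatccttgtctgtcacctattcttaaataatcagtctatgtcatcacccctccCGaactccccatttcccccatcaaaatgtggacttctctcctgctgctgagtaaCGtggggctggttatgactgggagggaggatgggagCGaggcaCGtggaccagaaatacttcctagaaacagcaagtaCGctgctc
SEMA5B (chr3:123028606-123028855, minus strand): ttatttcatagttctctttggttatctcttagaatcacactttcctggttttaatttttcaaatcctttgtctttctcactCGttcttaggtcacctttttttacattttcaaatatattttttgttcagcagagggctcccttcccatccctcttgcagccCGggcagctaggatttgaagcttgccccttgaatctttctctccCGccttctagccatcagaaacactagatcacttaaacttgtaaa
SEMA6D (chr15:47183839-47184088, plus strand): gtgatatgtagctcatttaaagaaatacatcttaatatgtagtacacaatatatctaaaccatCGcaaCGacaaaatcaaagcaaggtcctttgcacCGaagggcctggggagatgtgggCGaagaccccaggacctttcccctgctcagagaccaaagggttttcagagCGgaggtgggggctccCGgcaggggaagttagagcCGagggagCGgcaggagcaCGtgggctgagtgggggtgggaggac
EPHB1 (chr3:134795010-134795259, plus strand): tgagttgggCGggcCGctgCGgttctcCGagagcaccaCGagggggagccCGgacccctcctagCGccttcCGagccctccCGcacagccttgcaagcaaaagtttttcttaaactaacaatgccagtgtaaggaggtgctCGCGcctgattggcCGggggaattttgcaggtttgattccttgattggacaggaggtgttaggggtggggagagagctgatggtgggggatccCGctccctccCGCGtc
SLIT3 (chr5:169301140-169301389, minus strand): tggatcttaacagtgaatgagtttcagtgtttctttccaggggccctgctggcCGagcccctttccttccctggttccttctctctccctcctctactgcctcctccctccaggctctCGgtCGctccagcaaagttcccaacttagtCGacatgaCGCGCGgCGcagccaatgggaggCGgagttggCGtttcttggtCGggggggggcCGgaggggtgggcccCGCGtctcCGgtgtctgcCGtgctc

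SEMA3E, SEMA5B and SEMA6D held 6, 3 and 9 CpGs in these windows, and EPHB1 and SLIT3 held 15 and 16. The median was 17 over the 60 members with a window, 21 over the 11650 tested genes with a window and 11 over all 27305 windows in the table. Low CpG counts stood before a gene that rose (SEMA3E) and before genes that fell (SEMA5B, SEMA6D). Over the 21 windows of members that were higher the median was 20 CpGs, and over the 16 windows of members that were lower it was 16.5. The sequence GGAATG, the core recognised by TEAD factors, was present on either strand in 3 of the 60 member windows (5%) and in 9.4% of the windows of tested genes and 11.9% of all windows. TGANTCA, recognised by AP-1, was present in 1 (1.67%, with 4.09% of tested genes and 6.6% of all windows), and the E-box CACGTG in 4 (6.67%, with 8.63% and 6.49%). The GC box GGGCGG was present in 43 (71.7%, with 65.7% of tested genes and 42.3% of all windows), and TATAAA in 1 (1.67%, with 5.54% and 11.1%). None of these motif words contains another, and a match describes letters only.

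Values for single genes below are normalized counts, that is, read counts brought to a common effective library size, given for replicates 1, 2 and 3 of each group. They serve to compare libraries for a given gene; levels of different genes are compared only after division by exon length, as normalized counts per kb.

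Among the 20 semaphorins 18 were tested, of which 9 were higher, 4 lower and 5 not called. Beside this and the family counts below stand the shares of all tested genes, 26.3% higher and 28.2% lower. Of the 6 tested members of the secreted class 3, 4 were higher, none lower and 2 not called. SEMA3E (gene 9723, chr7:83363238-83649139), which signals through plexin D1, had 28.6, 40.5 and 27.9 normalized counts in the WT libraries and 312, 230.3 and 272 in the NUAK2-CR libraries. Its lowest NUAK2-CR value was several-fold above its highest WT value, and the log2 fold change was 3.07 (SE 0.22, adjusted p = 2.29e-07). SEMA3D (gene 223117, chr7:84995553-85250243), another secreted semaphorin, had 26.6, 34.7 and 33.3 normalized counts in the WT libraries and 128, 101 and 112 in the NUAK2-CR libraries. The groups stood apart at a low level, and the log2 fold change was 1.86 (SE 0.25, adjusted p = 5.18e-05). SEMA3A, the growth cone collapsing ligand of neuropilin 1, lies between them on chromosome 7, 307 kb from SEMA3E and 503 kb from SEMA3D, and rose less, with a log2 fold change of 0.49 (SE 0.10, adjusted p = 9.82e-04). SEMA3F, a ligand of neuropilin 2, had a log2 fold change of 0.20 (SE 0.06, adjusted p = 0.0196), a call that was lost without WT replicate 2 and without either of NUAK2-CR replicates 1 and 2 (adjusted p of 0.0507, 0.0512 and 0.0801). SEMA3C, the most abundant class 3 member, had 1542 to 2367 normalized counts per kb in WT and 2006 to 2230.0 in NUAK2-CR, and was not called (log2 fold change 0.09, SE 0.12, adjusted p = 0.56). SEMA3B, 71 kb from SEMA3F on chromosome 3, was not called either (log2 fold change 0.02, SE 0.09, adjusted p = 0.868).

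Opposite changes stood side by side in class 5 and class 6, whose proteins span the membrane. SEMA5A (gene 9037, chr5:9035033-9546075), which carries thrombospondin repeats and can attract or repel axons, had 514, 516 and 505 normalized counts in the WT libraries and 3756, 3383 and 3454 in the NUAK2-CR libraries. The WT values were close to each other and far under all NUAK2-CR values, and the log2 fold change was 2.79 (SE 0.08, adjusted p = 6.98e-11). Its only paralog in the class, SEMA5B (gene 54437, chr3:122909082-123028605), had 41.2, 42.5 and 36.5 normalized counts in the WT libraries and 12.7, 4.82 and 4.39 in the NUAK2-CR libraries. All NUAK2-CR values were under all WT values, with a log2 fold change of -2.46 (SE 0.45, adjusted p = 5.55e-04) and a ratio of WT to NUAK2-CR counts of 5.66 (95% interval 3.45 to 9.83, counting error only). Without NUAK2-CR replicate 1, which held 10 of its NUAK2-CR counts where the other libraries held 4 each, the log2 fold change was -3.07. SEMA5A made up 89.4 to 90.5% of class 5 normalized counts per kb in WT and 99.5 to 99.8% in NUAK2-CR. SEMA6D (gene 80031, chr15:47184089-47774228), a ligand of plexin A1, had 33.2, 78.1 and 76.3 normalized counts in the WT libraries and 0, 0 and 2.2 in the NUAK2-CR libraries. Before scaling these were 50, 81 and 71 counts against 0, 0 and 2, a ratio of 73.5 (95% interval 20.1 to 611, counting error only), and the fitted log2 fold change was -6.09 (SE 0.75, adjusted p = 2.19e-05). Its fitted value depends on the prior count (-4.52 with a prior count of 2) and on NUAK2-CR replicate 3, which held both NUAK2-CR counts and without which it was -8.98. Against the 2 NUAK2-CR libraries with no count SEMA6D was at least 16.8-fold higher in WT when each was set at 3 counts. SEMA6B (gene 10501, chr19:4542593-4559684), a ligand of plexin A4 and the most abundant class 6 member, had 1726, 1542 and 1884 normalized counts in the WT libraries and 4364, 4367 and 4805 in the NUAK2-CR libraries. Every NUAK2-CR value was more than 2-fold above every WT value, and the log2 fold change was 1.39 (SE 0.08, adjusted p = 4.53e-08). SEMA6C was higher (log2 fold change 0.55, SE 0.13, adjusted p = 0.003), and SEMA6A was not called (log2 fold change -0.51, SE 0.22, adjusted p = 0.0721), with WT replicate 1 lower than the other WT libraries. Without that replicate SEMA6A had a log2 fold change of -0.76 (adjusted p = 3.08e-04).

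Class 4 and class 7 semaphorins changed little. SEMA4C (log2 fold change 0.40, SE 0.06, adjusted p = 1.90e-04) and SEMA4F (log2 fold change 0.29, SE 0.08, adjusted p = 0.00962) were higher, SEMA4D, the ligand of plexin B1, was lower (log2 fold change -0.26, SE 0.09, adjusted p = 0.0251), and SEMA4B and SEMA4G were not called. SEMA4B was the most abundant class 4 member in both groups, at 883 to 1001 normalized counts per kb in WT and 838 to 897 in NUAK2-CR. SEMA4G overlaps exons of MRPL43 on the opposite strand, which had 10186 counts over the 6 libraries where SEMA4G had 351, and the counting was run at default settings, which do not use strand, so its values are uncertain. SEMA7A, which is anchored to the membrane by a lipid and binds plexin C1, was lower (log2 fold change -0.26, SE 0.09, adjusted p = 0.0295) although its groups overlapped. Its call was lost without WT replicate 3 and without either of NUAK2-CR replicates 1 and 3 (adjusted p of 0.124, 0.089 and 0.128). That of SEMA4D was lost without WT replicate 2 or 3 or without NUAK2-CR replicate 1 or 2 (0.0512, 0.0989, 0.115 and 0.0811), and SEMA4B was lower without WT replicate 1 (adjusted p = 0.0102).

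**Figure D2:**
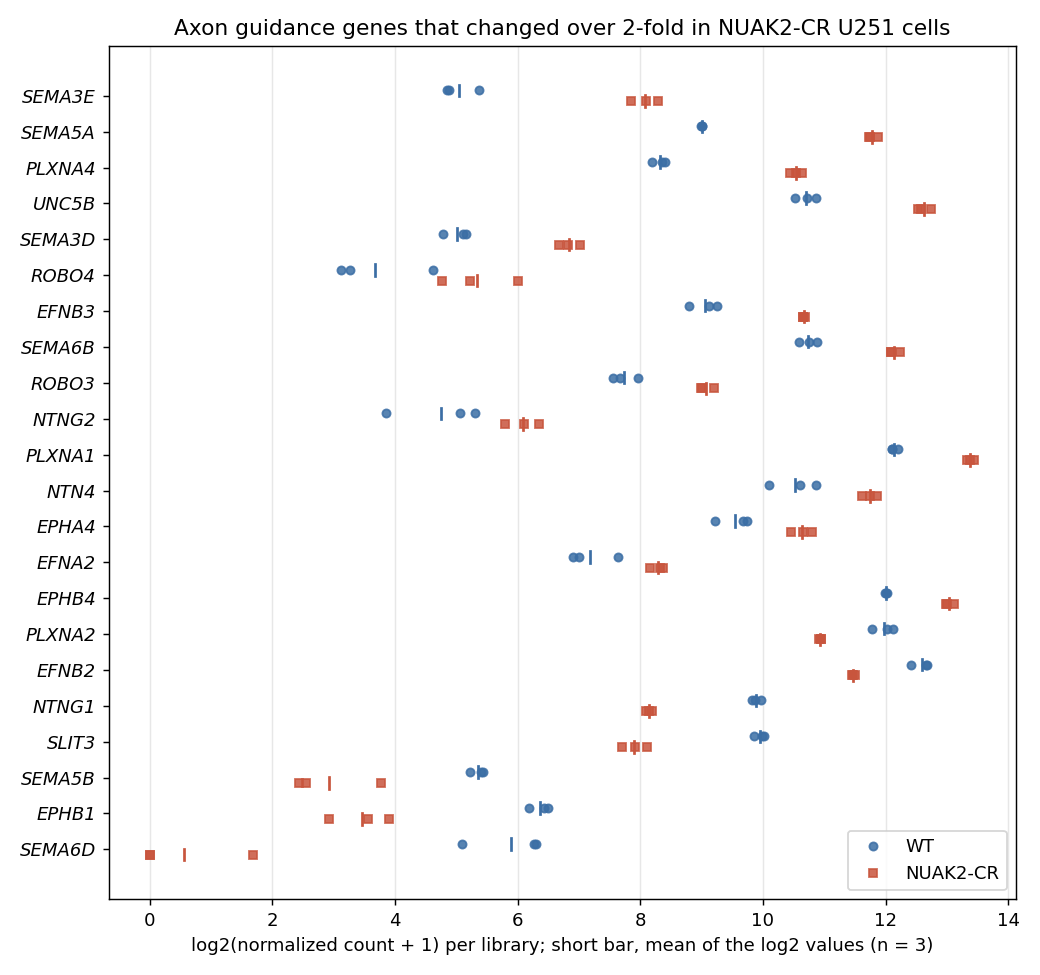
Log2(normalized count + 1) in each library of the 22 axon guidance genes that changed over 2-fold, with WT as blue circles, NUAK2-CR as red squares and a short bar at the mean of the log2 values (n = 3). In all 22 genes the WT and NUAK2-CR points occupy separate ranges, and the separation is narrowest for ROBO4 and NTNG2.

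All 9 plexins and both neuropilins were tested, of which 6 were higher, 3 lower and 2 not called. The 4 plexin A genes, the usual signalling partners of neuropilins and of class 6 semaphorins, moved apart. PLXNA4 (gene 91584, chr7:132123340-132648688) had 337, 328 and 291 normalized counts in the WT libraries and 1482, 1597 and 1389 in the NUAK2-CR libraries. Every NUAK2-CR value was at least 4-fold above every WT value, and the log2 fold change was 2.22 (SE 0.10, adjusted p = 2.91e-09). PLXNA1 (gene 5361, chr3:126983115-127037389), a receptor of SEMA3A with neuropilin 1 and of SEMA6D, had 4401, 4396 and 4717 normalized counts in the WT libraries and 10237, 11182 and 10629 in the NUAK2-CR libraries. No values overlapped, and the log2 fold change was 1.25 (SE 0.07, adjusted p = 1.90e-08). PLXNA2 (gene 5362, chr1:208022242-208244384) had 3503, 4475 and 4149 normalized counts in the WT libraries and 1940.2, 1963 and 1976 in the NUAK2-CR libraries. The NUAK2-CR values were close together and under all WT values, and the log2 fold change was -1.04 (SE 0.09, adjusted p = 8.50e-07). PLXNA3, whose exons overlap LAGE3 on the opposite strand, was not called (log2 fold change 0.08, SE 0.09, adjusted p = 0.479). Per kb PLXNA2 was close to PLXNA3 in WT (253 to 323 and 223 to 273) and under it in NUAK2-CR (140.1 to 143 and 243 to 281).

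PLXNB2, the most abundant plexin, rose from 1542 to 1628 normalized counts per kb in WT to 2459 to 2494 in NUAK2-CR, with a log2 fold change of 0.65 (SE 0.06, adjusted p = 2.68e-06). PLXNB1 also rose (log2 fold change 0.74, SE 0.07, adjusted p = 3.01e-06), as did PLXNC1 (log2 fold change 0.55, SE 0.18, adjusted p = 0.022). Exons of PLXNC1 overlap CEP83 on the opposite strand, which had 2851 counts over the 6 libraries where PLXNC1 had 1321, so the values of PLXNC1 are uncertain. PLXND1, the receptor of SEMA3E, fell slightly (log2 fold change -0.19, SE 0.07, adjusted p = 0.0294), and PLXNB3 was not called (log2 fold change -0.17, SE 0.09, adjusted p = 0.111). The call of PLXNC1 was lost without WT replicate 3 or NUAK2-CR replicate 3 (adjusted p of 0.0712 and 0.129), and that of PLXND1 without NUAK2-CR replicate 1 or 3 (0.132 and 0.13). The 9 plexins summed to 4384 ± 28.8 (SD, n = 3) normalized counts per kb in WT and 5774 ± 115 in NUAK2-CR. The neuropilins moved in opposite directions, NRP1 higher (log2 fold change 0.53, SE 0.08, adjusted p = 2.02e-04) and NRP2 lower (log2 fold change -0.68, SE 0.09, adjusted p = 3.41e-05). NRP2 remained the more abundant of the pair, with 84.8 to 85.6% of their summed normalized counts per kb in WT and 71.1 to 71.4% in NUAK2-CR, while the sum itself was 1775 ± 201 (SD, n = 3) in WT and 1321 ± 82.3 in NUAK2-CR.

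All 8 ephrins were tested, 3 higher, 2 lower and 3 not called. The transmembrane B-type ephrins showed the widest contrast. EFNB2 (gene 1948, chr13:106489745-106535662), the ligand of EPHB4 in vessels, had 5488, 6583 and 6476 normalized counts in the WT libraries and 2896, 2838 and 2809 in the NUAK2-CR libraries. Each NUAK2-CR value was close to the others and well under the WT values, and the log2 fold change was -1.12 (SE 0.08, adjusted p = 1.86e-07). EFNB3 (gene 1949, chr17:7705202-7711372), a midline barrier for axons of the spinal cord, had 441, 609 and 556 normalized counts in the WT libraries and 1651, 1608 and 1603 in the NUAK2-CR libraries. All NUAK2-CR values were more than 2-fold above all WT values, and the log2 fold change was 1.60 (SE 0.11, adjusted p = 1.43e-07). EFNB1 was not called (log2 fold change 0.04, SE 0.08, adjusted p = 0.729). EFNB2 made up 73 to 74.6% of the B-type normalized counts per kb in WT and 41.8 to 42.3% in NUAK2-CR, whereas EFNB3 made up 9.1 to 10.7% in WT and 37.1 to 37.5% in NUAK2-CR.

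The A-type ephrins are anchored by a lipid and are known for laying out visual maps. EFNA2 (gene 1943, chr19:1284227-1301431) had 118, 126 and 199 normalized counts in the WT libraries and 319, 330.4 and 285 in the NUAK2-CR libraries. WT replicate 3 was the highest WT library and still under all NUAK2-CR libraries, and the log2 fold change was 1.09 (SE 0.20, adjusted p = 5.14e-04). EFNA5 was also higher (log2 fold change 0.84, SE 0.12, adjusted p = 9.74e-05). EFNA1, a ligand of EPHA2, was lower (log2 fold change -0.68, SE 0.10, adjusted p = 9.42e-05), while EFNA3 and EFNA4, which lie 40 and 58 kb from EFNA1 on chromosome 1, were not called. EFNA1 and EFNA4 were at like levels per kb in WT, 364 to 429 and 336 to 391, and in NUAK2-CR EFNA4 was above EFNA1 in every library, at 299.6 to 386 and 229 to 263.

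Of 14 Eph receptors 8 were tested, and 5 of them were lower, 2 higher and 1 not called. EPHB1 (gene 2047, chr3:134795260-135260467), which directs retinal axons at the optic chiasm, had 71.7, 88.8 and 84.9 normalized counts in the WT libraries and 14, 10.8 and 6.59 in the NUAK2-CR libraries. All NUAK2-CR values were several-fold under all WT values, and the log2 fold change was -2.96 (SE 0.34, adjusted p = 1.33e-05). EPHB4 (gene 2050, chr7:100802565-100827523), the receptor of EFNB2, had 4114, 4055 and 4181 normalized counts in the WT libraries and 8144, 8875 and 8207 in the NUAK2-CR libraries. The libraries of a group lay close together and the groups were apart, with a log2 fold change of 1.03 (SE 0.07, adjusted p = 7.54e-08). Exons of EPHB4 overlap SLC12A9 on the opposite strand, which had 6144 counts over the 6 libraries where EPHB4 had 35535. EPHB3 (log2 fold change -0.76, SE 0.08, adjusted p = 7.95e-06) and EPHB2 (log2 fold change -0.25, SE 0.07, adjusted p = 0.00668) were lower, EPHB2 not without NUAK2-CR replicate 1 (adjusted p = 0.0504). EPHB2 and EPHB4 were at like levels per kb in WT, 652 to 722 and 629.9 to 649.6, but in NUAK2-CR EPHB4 was at 1265 to 1379 and EPHB2 at 560.3 to 597. EPHB4 thus went from 39.4 to 40% of EPHB normalized counts per kb in WT to 63.2 to 64.5% in NUAK2-CR.

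EPHA2, which is known for high expression in glioblastoma, was the most abundant Eph receptor, at 3299.7 to 3901 normalized counts per kb in WT and 2653 to 2871 in NUAK2-CR, and was lower in NUAK2-CR (log2 fold change -0.40, SE 0.08, adjusted p = 6.48e-04). EPHA4 (gene 2043, chr2:221418027-221574202), which binds both A-type and B-type ephrins, had 596, 859 and 814 normalized counts in the WT libraries and 1775, 1619.7 and 1409 in the NUAK2-CR libraries. No WT value reached the lowest NUAK2-CR value, and the log2 fold change was 1.09 (SE 0.13, adjusted p = 1.99e-05). EPHA5 was just under a 2-fold change in the other direction (log2 fold change -0.99, SE 0.14, adjusted p = 7.88e-05), and EPHA3, the runner-up of EPHA2 in level among the EPHA receptors, was not called (log2 fold change 0.14, SE 0.12, adjusted p = 0.344). EPHA4 and EPHA5 were at like levels per kb in WT, 78.9 to 114 and 80.5 to 116, and well apart in NUAK2-CR, at 186 to 235 and 42.4 to 55.8.

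SLIT and ROBO genes had 5 of 7 members tested, 3 higher, 1 lower and 1 not called. SLIT3 (gene 6586, chr5:168661740-169301139), a secreted repellent, had 1009.6, 928 and 1035 normalized counts in the WT libraries and 207, 275 and 239 in the NUAK2-CR libraries. All NUAK2-CR values were under all WT values, and the log2 fold change was -2.04 (SE 0.12, adjusted p = 2.92e-08). It was close to the DEG threshold, and its log2 fold change was -1.93 without NUAK2-CR replicate 1 and -1.63 less the median of the 50 tested genes nearest to it. SLIT2, the related repellent of commissural axons, rose from 205 to 231 normalized counts per kb in WT to 392 to 447 in NUAK2-CR, with a log2 fold change of 0.94 (SE 0.08, adjusted p = 5.83e-07). SLIT2 therefore made up 74.2 to 77.6% of SLIT normalized counts per kb in WT and 95.2 to 96.8% in NUAK2-CR. ROBO3 (gene 64221, chr11:124865432-124881471), which controls midline crossing of commissural axons, had 249, 204 and 187 normalized counts in the WT libraries and 588, 513 and 509 in the NUAK2-CR libraries. The groups did not overlap, and the log2 fold change was 1.32 (SE 0.14, adjusted p = 5.74e-06). ROBO4 (gene 54538, chr11:124883691-124897865), a ROBO best known from endothelium, lies 2 kb from ROBO3 and had 8.64, 7.72 and 23.6 normalized counts in the WT libraries and 63.5, 36.2 and 26.4 in the NUAK2-CR libraries. WT replicate 3 came close to NUAK2-CR replicate 3, and the log2 fold change was 1.69 (SE 0.50, adjusted p = 0.0129). That call was lost without WT replicate 2 (adjusted p = 0.0514) and without NUAK2-CR replicate 1 (adjusted p = 0.0752), and without WT replicate 3 the log2 fold change was 2.33. ROBO1 was the main ROBO receptor in both groups, with 88.1 to 92.1% of their normalized counts per kb in WT and 81.7 to 82.6% in NUAK2-CR, and its change did not pass the threshold (log2 fold change 0.24, SE 0.10, adjusted p = 0.0529) although its groups did not overlap. Without WT replicate 2 its adjusted p was 0.0233, and it was also under 0.05 with DESeq2 (0.0329), with RLE or library-size scaling (0.046 and 0.0368), with no filter beyond 1 count (0.0215) and with the replicate block (0.0459).

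**Figure D3:**
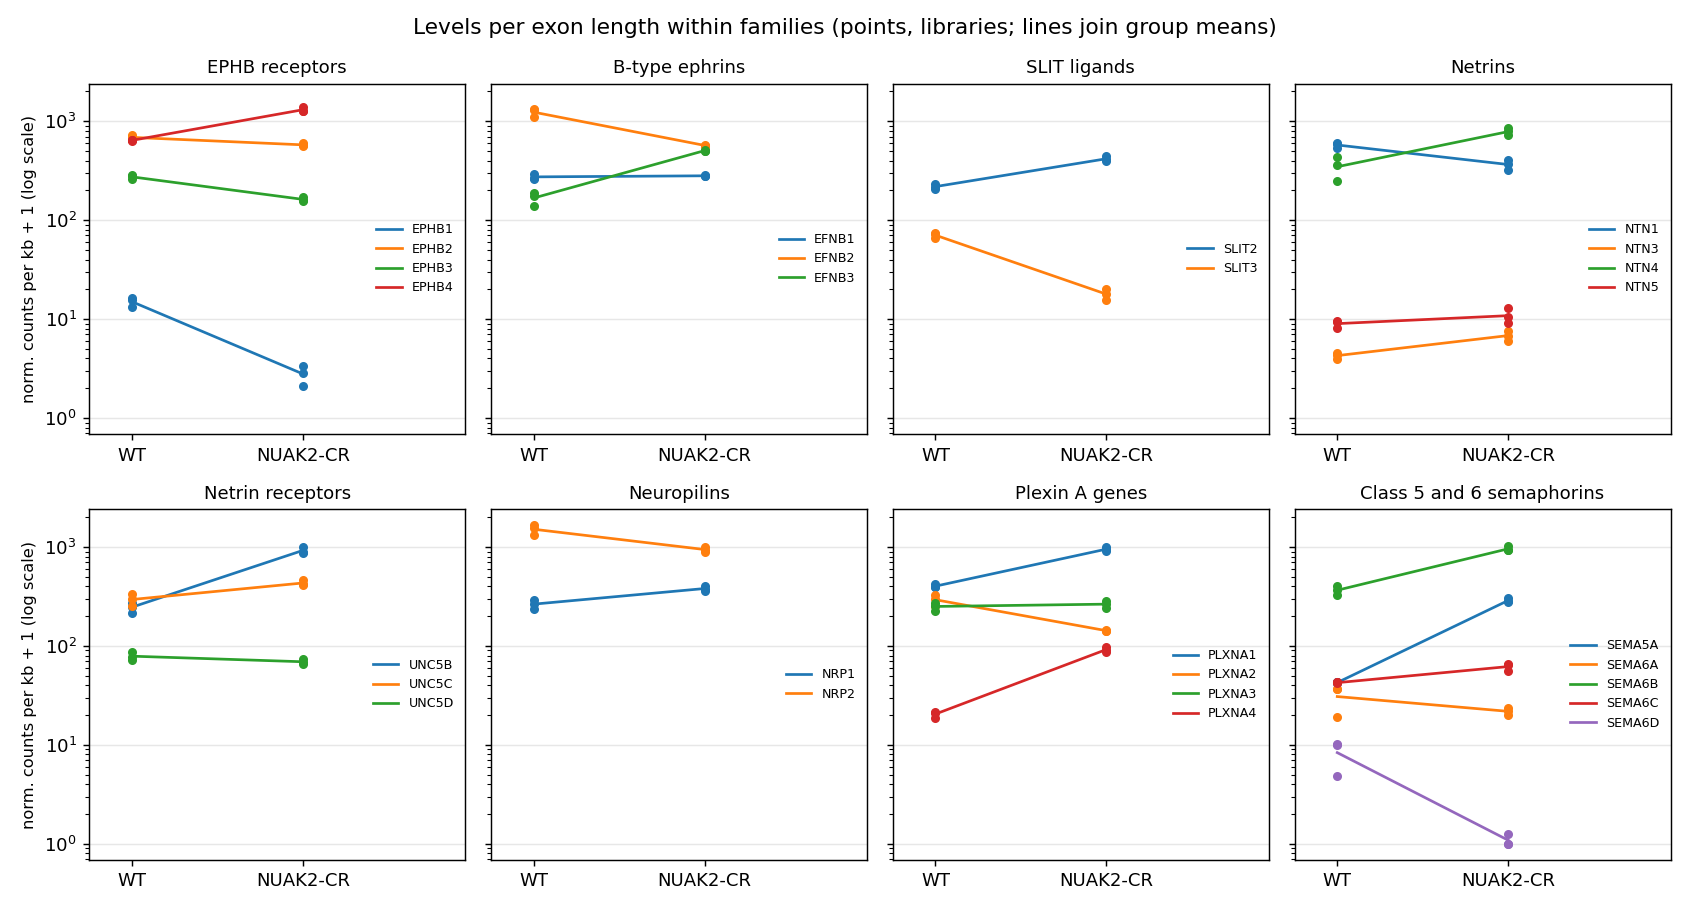
Normalized counts per kb of exon plus 1, on a log axis, for members of 8 gene groups in WT and NUAK2-CR; points are libraries and lines join group means, and genes that averaged 3 or fewer per kb are not drawn. The lines cross for EPHB2 and EPHB4, NTN1 and NTN4, and UNC5B and UNC5C, and part for SLIT2 and SLIT3. Those of EFNB2 and EFNB3 draw together, with EFNB2 still above.

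Netrins, netrin-G genes and netrin receptors had 9 of 11 members tested, 4 higher, 2 lower and 3 not called. UNC5B (gene 219699, chr10:71212570-71302864), a receptor that mediates repulsion by netrin 1, had 1467, 1870.5 and 1694 normalized counts in the WT libraries and 5932, 6123 and 6864 in the NUAK2-CR libraries. The groups were more than 3-fold apart, and the log2 fold change was 1.91 (SE 0.09, adjusted p = 8.29e-09). UNC5C was higher to a lesser extent (log2 fold change 0.56, SE 0.09, adjusted p = 2.64e-04), and UNC5D was not called (log2 fold change -0.19, SE 0.10, adjusted p = 0.112) except without WT replicate 1 (adjusted p = 0.036). UNC5C was the most abundant netrin receptor per kb in WT, at 254 to 331 with UNC5B at 214 to 273, and UNC5B was the most abundant in NUAK2-CR, at 867 to 1003 with UNC5C at 412 to 461. DCC, the attractive netrin 1 receptor, had 14, 4 and 10 raw counts in the WT libraries and 4, 0 and 0 in the NUAK2-CR libraries and was too low to be tested.

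NTN4 (gene 59277, chr12:95657807-95791155), a laminin-like netrin, had 1094, 1874 and 1561 normalized counts in the WT libraries and 3442, 3129.6 and 3704 in the NUAK2-CR libraries. Every NUAK2-CR library was above every WT library, of which replicate 1 was the lowest, and the log2 fold change was 1.19 (SE 0.15, adjusted p = 2.88e-05). NTN1 was lower (log2 fold change -0.66, SE 0.09, adjusted p = 6.03e-05), and NTN3 and NTN5 were not called. NTN1 was above NTN4 per kb in each WT library (532 to 600.0 against 250.6 to 429) and under it in each NUAK2-CR library (317 to 406 against 717 to 849). The netrin-G proteins are lipid-anchored and do not bind DCC. NTNG1 (gene 22854, chr1:107140088-107484923) had 908, 998 and 941 normalized counts in the WT libraries and 292, 282 and 273 in the NUAK2-CR libraries. The values were close within each group and more than 3-fold apart between groups, with a log2 fold change of -1.75 (SE 0.10, adjusted p = 2.11e-08). NTNG2 (gene 84628, chr9:132161689-132244526) had 32.5, 13.5 and 38.7 normalized counts in the WT libraries and 54.6, 80.8 and 68.1 in the NUAK2-CR libraries. WT replicate 2 was the lowest library and no values overlapped, with a log2 fold change of 1.26 (SE 0.37, adjusted p = 0.0115). The call was lost without NUAK2-CR replicate 2 (adjusted p = 0.051). LRRC4C, the partner of netrin-G1, was lower (log2 fold change -0.97, SE 0.14, adjusted p = 8.78e-05) and LRRC4, the partner of netrin-G2, was higher (log2 fold change 0.52, SE 0.18, adjusted p = 0.0282); these 2 genes were singled out after their values were seen.

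Some ligands and receptors named as partners above, where both were called, are set side by side here with their log2 fold changes. The pairs were picked with these values known and are not a full list. EPHA4 (1.09) with the called ephrins and NTN1 with UNC5C (0.56) are left out. EFNB2 is paired only with EPHB4, while the other tested EPHB receptors were lower (EPHB1 -2.96, EPHB2 -0.25, EPHB3 -0.76). Both partners were higher for SEMA3A (0.49) with NRP1 (0.53) and PLXNA1 (1.25), for SEMA6B (1.39) with PLXNA4 (2.22), and for NTNG2 (1.26) with LRRC4 (0.52). Both were lower for EFNA1 (-0.68) and EPHA2 (-0.40), and for NTNG1 (-1.75) and LRRC4C (-0.97). The ligand was lower and the receptor higher for EFNB2 (-1.12) and EPHB4 (1.03), for SEMA6D (-6.09) and PLXNA1, for NTN1 (-0.66) and UNC5B (1.91), for SEMA4D (-0.26) and PLXNB1 (0.74), and for SEMA7A (-0.26) and PLXNC1 (0.55). The ligand was higher and the receptor lower for SEMA3E (3.07) and PLXND1 (-0.19), and for SEMA3F (0.20) and NRP2 (-0.68). The calls of SEMA3F, SEMA4D, SEMA7A, PLXNC1, PLXND1 and NTNG2 were among those lost when 1 library was left out. Values of PLXNC1 are also uncertain because of its overlap with CEP83. Over all 34 tested ligands 15 were higher and 9 lower, and over the 25 tested receptors 12 were higher and 8 lower, where 26.3% of all tested genes were higher and 28.2% lower.

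The 12 members that could not be tested were SEMA3G, SEMA4A, EPHA1, EPHA6, EPHA7, EPHA8, EPHA10, EPHB6, DCC, UNC5A, SLIT1 and ROBO2, with at most 22 raw counts in a library. EPHA6, EPHA8 and ROBO2 had no count in any library, where a count of 0 allows up to 3 counts. EPHB6, a kinase-dead Eph receptor, had 22, 16 and 8 raw counts in WT and 0 in each NUAK2-CR library, and was at least 3.6-fold lower there when set against 3 counts per library. The WT to NUAK2-CR count ratio was 7.64 for EPHA7 (95% interval 1.87 to 67.2), 4.8 for SLIT1 (1.86 to 15.8), 5.1 for DCC (1.78 to 20) and 4.37 for SEMA4A (1.5 to 17.3), all counting error only. For SEMA3G and UNC5A the intervals included 1, as did that of EPHA10.

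The members lie on many chromosomes. The 50 tested genes nearest to each member had a median log2 fold change that ranged from -0.60 to 0.29. It was negative for all 8 tested members on chromosome 1 (-0.48 to -0.26), where NUAK2 lies as well, and of these 5 were lower and 1, SEMA6C, was higher. Off chromosome 1, 26 of 51 tested members were higher and 12 lower. Shares of all tested genes on and off chromosome 1 were not taken, so whether the members differ from them was not tested. Less the local median, 18 of the 22 members past 2-fold stayed past it, and the sign turned for EPHB2 among the 44 called members, from -0.25 to 0.16. NTN1 came to -0.06 less its local median of -0.60, while EFNB3, 1292 kb away on chromosome 17 among genes with a median of -0.38, came to 1.98. EPHA5, EPHB2, PLXNB3, SEMA3B, SEMA6A, SEMA6D, SLIT3 and NTN5 share exon sequence with another annotated gene, which in each case had at most 349 counts over the 6 libraries. NTN5 itself had only 163 counts, where its neighbour SEC1P had 48. The part of regional shifts in the results was not tested.

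**Figure D4:**
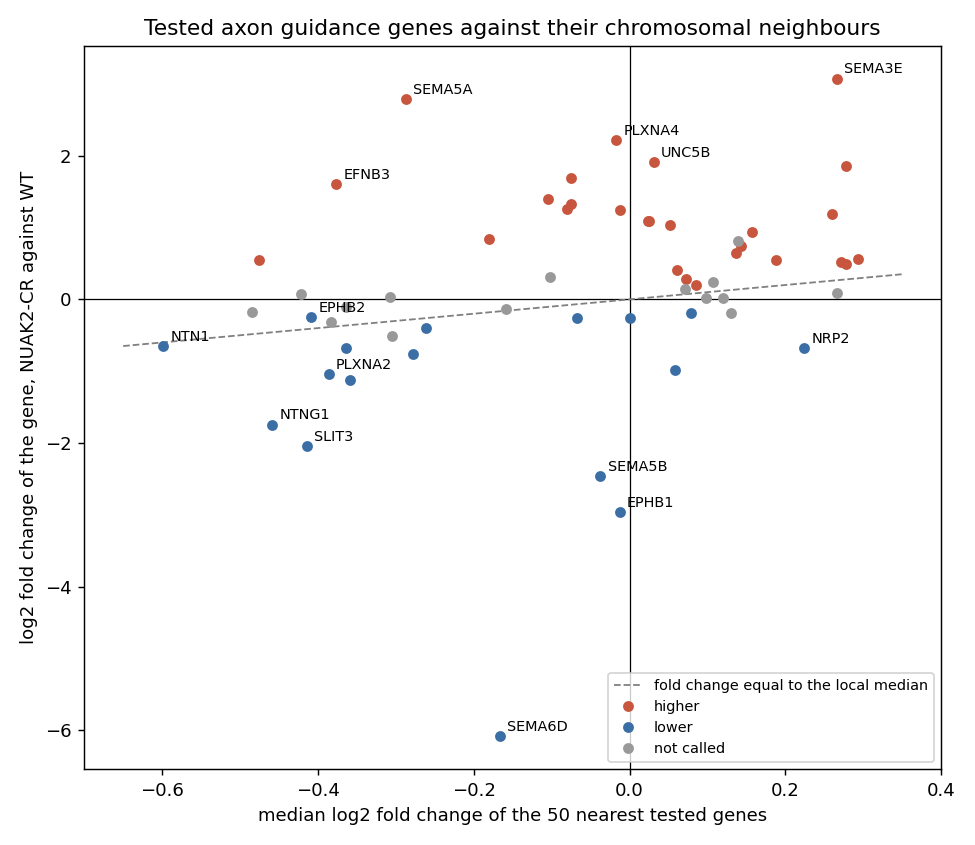
Log2 fold change of each of the 59 tested axon guidance genes (vertical axis) against the median over the 50 nearest tested genes on its chromosome (horizontal axis), with the dashed line where both are equal; red genes were higher, blue lower and grey not called. NTN1 lies on the line, whereas SEMA5A and EFNB3 rose among neighbours with medians of -0.29 and -0.38.

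Other genes of the pathway were taken in 2 lists. Both lists were chosen with earlier results of these data known, so their shares do not test for an excess over all genes. Of 30 co-receptors and further guidance cues outside the named families 25 were tested, 13 were higher (52%, with 26.3% of all tested genes) and 9 lower (36%, with 28.2% of all tested genes), with a median log2 fold change of 0.44 and 5 DEGs. CNTN1, a contactin of the axon surface, fell most, from a WT mean of 2549 ± 206 normalized counts to 79.9 ± 7.44 in NUAK2-CR (SD, n = 3), with a log2 fold change of -5.0 (SE 0.11, adjusted p = 1.54e-11). NGFR, the p75 neurotrophin receptor and a co-receptor of the Nogo receptor, fell from a WT mean of 2161 ± 175 normalized counts to 76.6 ± 13.7 in NUAK2-CR (SD, n = 3), with a log2 fold change of -4.81 (SE 0.13, adjusted p = 6.27e-11). NFASC, or neurofascin, an axonal adhesion molecule, had a log2 fold change of -4.06 (SE 0.12, adjusted p = 2.07e-10), and PTPRD, a receptor phosphatase, had a log2 fold change of -3.84 (SE 0.73, adjusted p = 7.16e-04). PTPRD had only 34, 15 and 17 raw counts in the WT libraries and 0, 2 and 1 in the NUAK2-CR libraries. It could pass the expression filter on its WT libraries, and its fold change is uncertain. BOC, a hedgehog co-receptor of commissural axons, was the DEG that rose, from a WT mean of 527 ± 27.1 normalized counts to 2256 ± 144 in NUAK2-CR (SD, n = 3), with a log2 fold change of 2.10 (SE 0.08, adjusted p = 1.45e-09). Of 69 intracellular effectors, among them kinases and other proteins that act on actin, 66 were tested, 26 were higher (39.4%) and 19 lower (28.8%), the latter close to the share of all tested genes, with a median log2 fold change of 0.09. RAC2, a small GTPase best known from blood cells, was the DEG in this list and fell from a WT mean of 377 ± 47.8 normalized counts to 31 ± 15 in NUAK2-CR (SD, n = 3), with a log2 fold change of -3.62 (SE 0.26, adjusted p = 2.03e-07). The next largest changes were those of the kinase PAK3 (log2 fold change -1.62, SE 0.15, adjusted p = 1.96e-06) and of the actin-oxidising enzyme MICAL2 (log2 fold change 1.58, SE 0.10, adjusted p = 1.09e-07).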

How the data were processed

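RNA was isolated with TRIzol and sequenced as paired ends after stranded mRNA library preparation. The authors used Trimmomatic on the reads, HISAT2 for alignment to hg38 and featureCounts for counting, each run at its defaults, and the deposited values are raw counts of reads in each gene. The defaults of featureCounts do not use strand, so reads of a gene and an overlapping antisense neighbour cannot be told apart, and the gene annotation is not given in the sources used here. Rows carry NCBI gene identifiers, of which 27745 of 28395 matched a RefSeq symbol. Positions are those of RefSeq on GRCh38.p14, and exon lengths are unions over GENCODE transcripts.

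Groups and replicate numbers came from the labels. The quasi-likelihood F test of edgeR 4.0.16 (R 4.3.3; filterByExpr, TMM, prior count 0.125) was run on all 6 libraries with Benjamini-Hochberg adjustment over 14873 genes, and was tested on simulated counts. A called gene had adjusted p under 0.05. Members and lists were chosen with earlier results of these data known. Genes named with every library's value are the members past 2-fold; also named are the most abundant member of each family and, of the other pathway lists, DEGs and the 3 largest changes. Counting intervals (95%) and the floor of 3 counts cover counting error only. Alternatives were DESeq2 1.42.0, RLE and library-size scaling, a filter of 1 count in all and a stricter one of 10 in each library, a prior count of 2, a replicate block, each library left out and subtraction of the local median (25 tested genes on each side). Tables and figures used Python 3.11.15, pandas 2.3.3 and matplotlib 3.10.9.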

Additional observations from a re-analysis of the deposited data

How the results depend on the processing

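The count of members higher in NUAK2-CR was 27 and stayed between 25 and 28 under the other filters, the other scalings, DESeq2, the replicate block and each left-out library, and the count of lower members was 17 and stayed between 14 and 21. The count past the DEG thresholds was 7 and moved to 4 when at least 10 counts were required in every library, which removed SEMA6D, SEMA5B and EPHB1 from the test, and to 22 at an absolute log2 fold change over 1. It was 8 with DESeq2, 6 less the local median, where SLIT3 came to -1.63, and between 7 and 9 with a library left out. The members counted were not always the same, as SLIT3 was at -1.93 without NUAK2-CR replicate 1 and ROBO4 at 2.33 without WT replicate 3. With a library left out the filter can ask for enough counts in fewer libraries, so further members can enter the test through the group where they are high. The similar counts therefore do not show that the same members passed. NUAK2 moved from -0.93 to -0.49 on the log2 scale less its local median, and EPHB2 turned from -0.25 to 0.16. Among members that were not called, leaving out 1 library turned the sign of the log2 fold change of EFNB1 (-0.00033 to 0.084), SEMA3B (-0.0014 to 0.066), SEMA3C (-0.063 to 0.22), SEMA4G (-0.15 to 0.28) and EPHA3 (-0.0098 to 0.24). The members past 2-fold kept their direction under every alternative that gave a value, and the calls of ROBO4 and NTNG2 were lost as given with their values. Deviations of same-numbered WT and NUAK2-CR libraries were only weakly correlated (0.043, -0.035 and 0.048), and the other combinations lay between -0.066 and 0.021. The labels do not say whether the replicate numbers pair libraries, and these weak correlations cannot decide it. With the replicate block 28 members were higher and 17 lower. The spread rests on 3 libraries per group. At these depths members without about 10 counts in 3 libraries could not be tested. Of the tested members, 5 had fewer than 10 counts in a library.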
